A study of Mus musculus with 39 samples.

Results

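Contacts between the mouse globin loci and other chromosomes were described from NG Capture-C, an assay in which a chosen DpnII fragment, the viewpoint, is captured from a chromosome conformation capture (3C) library and the fragments ligated to it are counted. An interchromosomal, or trans, contact was any target DpnII fragment on a chromosome other than that of the viewpoint, among chromosomes 1 to 19, X and Y. In this way 693492 of the 1254901 DpnII fragments listed in any library received a trans contact from at least 1 of 13 viewpoints. The deposited values are reads per 100000 reporter reads of a viewpoint, and trans values are given here per 100000 trans reads of a viewpoint unless stated otherwise.

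The libraries came from erythroid cells of disaggregated C57Bl6 mouse foetal liver (MFL) that had been expanded in culture and depleted of Ter119-positive cells, and from E14 embryonic stem cells (mES, 129/Ola), in which the α-globin genes are silent. The paper's methods instead describe its mutant and wild-type mice as kept on a mixed background, so the strain of MFL is not settled. WT MFL at 0 h and at 30 h of differentiation were captured from the promoters of both α-globin genes (Hba-1 and Hba-2), the upstream CTCF site HS39_5, both adult β-globin promoters (Hbb-b1 and Hbb-b2) and Slc25a37. WT MFL and WT mES were captured from the α-globin enhancers R1 and R2, and WT MFL at 30 h and mES from the FISH probe positions Ex, E, A, C and Cx, which lie across the α-globin locus from upstream to downstream. MFL at 30 h lacking R1 and R2 (DKO) and WT MFL at 30 h hold values from the same viewpoints as the 0 h and 30 h libraries, although their titles name only the Hba promoters and HS39_5. All of these values were used. In these libraries Hba-1, Hba-2 and HS39_5 are called the α-globin viewpoints and Hbb-b1 and Hbb-b2 the β-globin viewpoints, and values of a set are means over its viewpoints. Each of these 8 groups had 3 biological replicates. The remaining 5 groups, all of MFL at 30 h, were single libraries: AMKO, in which Hba1 and Hba2 are deleted, and its WT, both captured from R1 and R2, and WT cells that were untreated or treated for 3 h with DMSO or with DRB, an inhibitor of transcriptional elongation. For the replicated MFL libraries from R1 and R2 the labels are at odds, since their time field reads 0 h and their description 30 h, and 30 h was used. Cells of each stage were a cultured population and not pure, mES were 1 cell line of another strain, and how many animals stood behind a replicate is not stated in the sources used here.

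Each chromosome occupies its own territory in the interphase nucleus, and contacts between territories are far rarer per pair of sites than contacts within a chromosome. Genome-wide maps in many cell types have shown that trans contacts form mostly between chromatin of like activity, with gene-rich active regions of different chromosomes meeting more often than gene-poor ones. The α- and β-globin genes encode the subunits of haemoglobin, and Slc25a37 encodes mitoferrin-1, which carries iron into erythroid mitochondria for haem synthesis. These genes are highly transcribed in differentiating erythroid cells and lie on different chromosomes, 11, 7 and 14.

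Depth set what could be seen. A viewpoint had 4824 to 16659 trans reads in the first run of MFL 0 h, 1892 to 7145 in MFL 30 h, 1682 to 5528 in MFL from R1 and R2, 3696 to 8115 in mES from R1 and R2, 2046 to 11557 in MFL and 10666 to 37070 in mES from the FISH probes, 962 to 14876 in DKO and 1666 to 20199 in WT. A second run or technical replicate, where there was one, was averaged with the first. Among the replicated groups, chromosome Y was at or near 0 in 3 libraries with a high chromosome X share (MFL 30 h replicate 1, MFL FISH replicate 1 and WT replicate 2). WT replicate 1 stood apart in its trans share, as given below. Reads are PCR products without molecular identifiers, so intervals cover counting error only.

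The single fragments that received most trans reads are shown first, because their sequences bear on how trans reads are read. The fragment chr17:26438451-26438723 recurred from each of the 8 viewpoints in the α-globin locus other than the gene promoters. It lies 14445 bp from Hba-ps4 (ENSMUSG00000084893.3, chr17:26423308-26424006, minus strand), an α-globin pseudogene, and outside any annotated gene. Its first 217 bases aligned at 93.67% identity to 1 place in the α-globin locus, between Hba-a1 (chr11:32183511-32184465) and Hba-a2 (chr11:32196489-32197301). Both stretches are printed with the bases that differ, or that the other lacks, in capitals (build NCBIM37, that is mm9, chr17:26438451-26438667 on the plus strand and chr11:32189503-32189723 on the minus strand).
chr17 stretch: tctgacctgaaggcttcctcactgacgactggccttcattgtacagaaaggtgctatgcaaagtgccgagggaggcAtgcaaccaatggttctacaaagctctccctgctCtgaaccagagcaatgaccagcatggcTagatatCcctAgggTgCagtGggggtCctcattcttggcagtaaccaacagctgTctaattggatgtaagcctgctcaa
chr11 copy: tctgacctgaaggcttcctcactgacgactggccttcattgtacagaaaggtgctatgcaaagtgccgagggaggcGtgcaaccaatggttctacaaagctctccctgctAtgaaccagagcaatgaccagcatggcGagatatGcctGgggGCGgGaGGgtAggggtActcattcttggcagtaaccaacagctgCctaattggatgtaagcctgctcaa

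In the first run or technical replicate, the chr17 fragment held 104 of 114852 trans reads from HS39_5, or 90.6 per 100000 (95% exact Poisson interval 74.0 to 110), and was present in 12 of 12 libraries. From R1 and R2 in the replicated groups it held 40 reads, 74.3 per 100000 (53.1 to 101), in 12 of 12 viewpoint libraries. From the FISH viewpoints, E gave 74.4 per 100000 and A 133, against 34.2 from Ex, 17.2 from C and 8.30 from Cx. From Hba-1 and Hba-2 it held 0 of 261470 trans reads in 30 viewpoint libraries, which allows up to 1.15 per 100000, and the β-globin and Slc25a37 viewpoints also gave no read. The fragment that carries the copy on chromosome 11, chr11:32189417-32189723, held 2264 reads from Hba-1 and Hba-2, 354 from HS39_5 and 244 from R1 and R2. The chr17 fragment thus made up 22.7% of the reads on both copies from HS39_5, 14.1% from R1 and R2 and 0% from the gene promoters.

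The AMKO library, which lacks the α-globin genes, held 1 read on the chr17 fragment (2.01 per 100000 trans reads, interval 0.051 to 11.2) and 6 on the chr11 copy from R1 and R2. The WT library of the same experiment held 16 reads (51.8, 29.6 to 84.0) and 140. The chr11 copy lies between the genes that AMKO lacks, so its low count there is not read as a weaker contact. Each genotype was a single library, with no replicate check, and whether reads on chr17 stem from the chr11 copy was not tested.

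From R2 the leading trans fragment was chr6:117878887-117879058, 3248 bp from Hnrnpf, which encodes an RNA-binding protein. Its first bases match the R2 viewpoint fragment with 1 mismatch in 22 bases, and both are printed with the matching stretch in capitals (NCBIM37, plus strand for chr6, and minus strand for R2 at chr11:32151860-32151881). The fragment chr8:10960472-10960519, 26461 bp from Irs2, an insulin signalling adaptor gene, is printed with the flanking DpnII sites in capitals (chr8:10960470-10960521) because it led from α-globin and Slc25a37 viewpoints although it is only 48 bp long.
chr6 fragment: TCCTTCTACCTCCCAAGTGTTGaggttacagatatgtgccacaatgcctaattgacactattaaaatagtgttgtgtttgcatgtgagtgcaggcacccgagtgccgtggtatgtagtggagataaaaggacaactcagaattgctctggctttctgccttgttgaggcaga
R2 stretch: TCCTTCTACCTCCCAAGTGATG
chr8 fragment: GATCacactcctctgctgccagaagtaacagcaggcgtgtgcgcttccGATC

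The chr6 fragment received 163, 237 and 364 per 100000 trans reads from R2 in the MFL replicates, ordered by value, and 273, 364 and 370 in mES, so the groups overlapped. It received 320 in AMKO and 387 in the WT of that experiment. From R1, captured in the same libraries, it received 0 of 8489 trans reads in MFL, so the fragment was met by R2 and not by R1 at this depth. R1 gave 1 read in mES and 3 in AMKO.

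The chr8 fragment differed by experiment, by sequencing run and by viewpoint. In the NextSeq run of MFL 0 h it held 327 to 531 per 100000 trans reads from HS39_5, 310 to 367 from Slc25a37 and 39.4 to 144 from the β-globin viewpoints. In the MiSeq run of the same libraries HS39_5 gave 1 read of 5023. At 30 h the NextSeq run gave 330 to 464 from HS39_5 and the MiSeq run 0 reads from all 6 viewpoints. In WT of the DKO experiment HS39_5 gave 15.7 to 44.3. The level therefore changed within single libraries from run to run, and no difference between groups is drawn from it.

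From the FISH viewpoints the leading fragment was chr7:97121794-97122971, in an intron of Eed, which encodes a core subunit of Polycomb repressive complex 2. It was met by C, which gave 4337 to 6688 per 100000 trans reads in MFL and 3987 to 5824 in mES in the first technical replicate, so that the cell types overlapped. The other 4 FISH viewpoints gave at most 34.5 in that replicate. The first 69 bases of the Eed fragment aligned at 94.2% identity to chr11:32253903-32253971, beside the C viewpoint fragment, which starts at 32254012. Around the α-globin locus this fragment had 55 matches, and whether its reads stem from chromosome 11 was not tested. Further leading fragments also resembled interspersed sequence near a viewpoint. From the β-globin viewpoints, chr9:3613927-3614425 in an intron of Gucy1a2 held a mean of 71.3 and was 95.29% identical over 467 bases to a place around the β-globin locus with 116 matches of this kind. A fragment that held over 1% of a viewpoint's trans value was called hot, and chromosome and bin fits were also run without such fragments.

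The trans share, the percentage of a viewpoint's reads on other chromosomes, separated the cell types. From R1 it was 32.0, 33.5 and 30.6% in MFL and 12.2, 22.4 and 14.2% in mES. From R2 it was 37.4, 36.7 and 34.0% in MFL and 12.1, 20.9 and 13.5% in mES. For both enhancers every MFL replicate lay above every mES replicate, and the means differed by 15.8 and 20.6 percentage points (log2 ratio 0.98 and 1.22, n = 3 a group).

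The FISH viewpoints showed the same order. From E, within the enhancer region, the trans share was 43.5 ± 5.00% in MFL and 16.5 ± 2.54% in mES (mean ± SD, n = 3), a difference of 27.0 points. The differences were 14.5 points from A, at the α-globin genes, 12.8 from C, 14.7 from Cx and 12.9 from Ex. Over both captures, groups did not overlap for 2 of 2 enhancer viewpoints (100%) and 5 of 5 FISH viewpoints (100%). Each two-sided exact permutation test gave p = 0.1, the smallest that 3 against 3 replicates can give, and 0.257 after Benjamini-Hochberg adjustment over 18 tests, so none could pass 0.05. MFL and mES also differed in strain and depth, which cannot be told apart from cell type. Where nothing says that replicates were separate cultures, p-values measure the spread between these samples.

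Viewpoints captured in the same libraries were also set against each other, a comparison added after the data were seen. In MFL the trans share of E exceeded the mean of Ex, A, C and Cx by 12.9, 11.7 and 10.4 points in replicates 1 to 3. In mES it was below that mean, with signed differences of -0.724, -3.16 and -0.961 points. The difference between the cell types was 13.3 points (exact permutation p = 0.1, the smallest possible). R2 exceeded R1 by 5.39, 3.17 and 3.4 points in MFL and differed by -0.104, -1.51 and -0.725 points in mES, a difference of 4.77 points (exact permutation p = 0.1). In both captures E and R2 therefore had the higher trans share in MFL, and every library of a cell type had the same sign.

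Between 0 h and 30 h the trans share overlapped for all 6 viewpoints (0.0% not overlapping). From Hba-1 it was 45.6, 43.9 and 39.8% at 0 h and 49.4, 50.1 and 39.0% at 30 h, a difference of 3.06 points (exact permutation p = 0.6, adjusted 0.72). From Hbb-b1 it was 43.8, 42.4 and 38.7% at 0 h and 51.3, 51.7 and 39.7% at 30 h, a difference of 5.93 points (exact permutation p = 0.3, adjusted 0.54). Replicate 3 was lowest at both stages for these viewpoints. The Slc25a37 viewpoint differed by 0.287 points between means of 41.3 and 41.6% (exact permutation p = 0.9).

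In DKO, which lacks R1 and R2, no viewpoint of the 5 tested separated from WT with all replicates (0.0%). From Hba-1 the share was 31.0, 30.9 and 32.0% in DKO and 39.0, 32.3 and 27.6% in WT, a difference of -1.71 points (exact permutation p = 0.7). From HS39_5 the DKO mean was 4.08 points above WT and from Hbb-b2 5.94 points (exact permutation p = 0.5 and 0.4). WT replicate 1 was the highest WT library from every viewpoint. Without it DKO lay above WT, by 1.30 points from Hba-1, 0.544 from Hba-2, 9.32 from HS39_5, 8.16 from Hbb-b1 and 9.99 from Hbb-b2, and the groups no longer overlapped for HS39_5, Hbb-b1 and Hbb-b2 (exact permutation p = 0.1 for these 3 viewpoints, the smallest that 3 against 2 replicates can give). Whether DKO and WT differ from these viewpoints thus rests on 1 library. From Slc25a37, which was not among the viewpoints tested here, the share was 32.4, 31.4 and 32.0% in DKO and 38.6, 30.5 and 30.5% in WT, with overlap. Without WT replicate 1 every DKO library also lay above the remaining WT libraries from Slc25a37. Hba-1 and Hba-2 together exceeded HS39_5 by 7.91, 7.00 and 3.54 points in MFL 30 h and by 0.369, 9.0 and 4.86 points in WT. In DKO the signed difference was -1.10, -4.31 and 0.989 points, and its mean differed from that of WT by -6.22 points (exact permutation p = 0.2), a difference the replicates do not resolve.

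**Figure D1:**
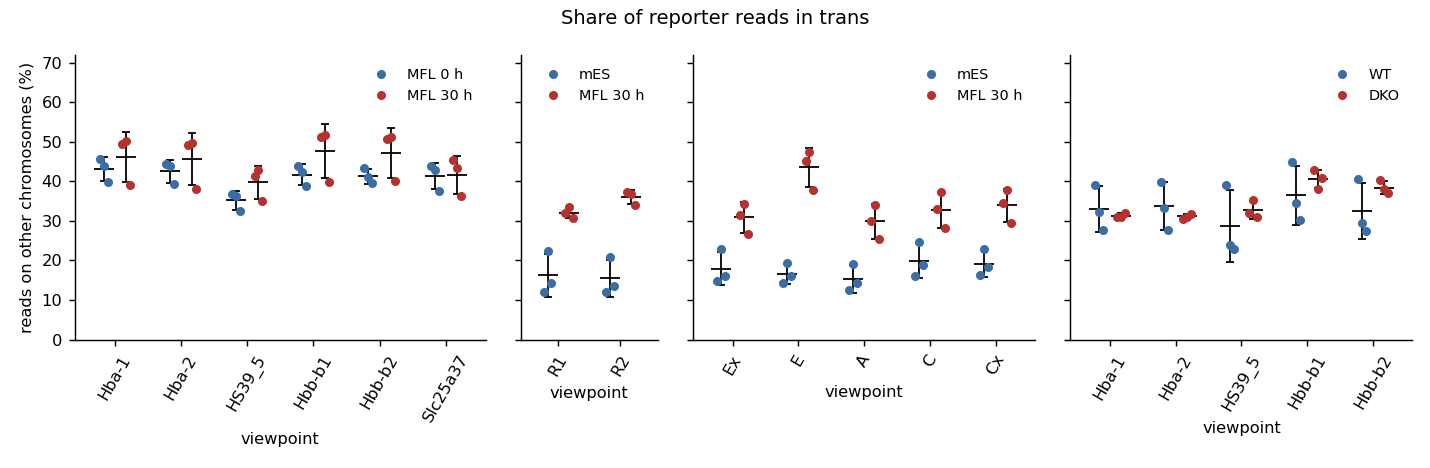
Trans share in percent (y axis) of each viewpoint (x axis) in 4 comparisons, with points for the 3 replicates of a group and bars for the mean ± SD. Points of MFL lie above those of mES for 7 viewpoints, whereas 0 h and 30 h, and DKO and WT, overlap for all of theirs with every replicate included.

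Trans contacts were spread over chromosomes largely by length. Over 18 autosomes, the share of trans value on a chromosome followed its sequenced length with r = 0.927 (Spearman's rho 0.901) from the α-globin viewpoints at MFL 30 h, r = 0.956 (0.909) from the β-globin viewpoints and r = 0.875 (0.845) from Slc25a37. These are descriptions over chromosomes of the same libraries and carry no p. In the other replicated groups r ranged from 0.848 (R1 and R2 in MFL) to 0.970 (β-globin at MFL 0 h).

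The departures from length differed by viewpoint. Per Mb, the α-globin viewpoints at MFL 30 h reached chromosome 19 at 1.44 ± 0.123 (SD, n = 3) and chromosome 17 at 1.29 ± 0.0595 times the trans mean, and chromosome 1 at 0.873. The β-globin viewpoints reached chromosome 19 at 1.12 ± 0.130 and chromosome 11, which carries α-globin, at 1.16 ± 0.188. Slc25a37 reached chromosome 11 at 1.45 ± 0.130. Shorter chromosomes thus had more trans value per Mb from α-globin, with r between this density and length of -0.604 to -0.797 across the MFL 0 h, 30 h, WT and DKO groups, whereas r was -0.319 to 0.0337 from β-globin in the same groups. Density followed gene density for both, with r of 0.579 to 0.731 from α-globin and 0.688 to 0.886 from β-globin. Chromosome X was low from every set, at 0.504 ± 0.105 from α-globin and 0.589 ± 0.110 from β-globin at MFL 30 h, in libraries that differ in their chromosome Y share.

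**Figure D2:**
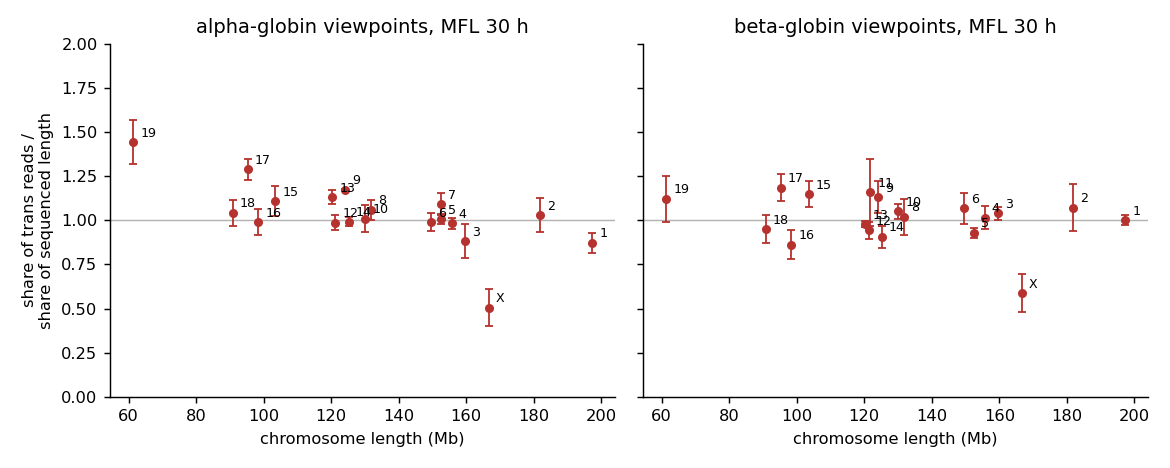
Trans value per Mb of each chromosome relative to the trans mean (y axis) against sequenced chromosome length in Mb (x axis) for the α- and β-globin viewpoints in MFL 30 h, as mean ± SD of 3 replicates, with chromosome Y not drawn. Short chromosomes such as 19 and 17 lie above 1 from α-globin, at 1.44 and 1.29, and chromosome X lies lowest at 0.504 and 0.589.

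Trans value rose with the number of protein-coding genes in a 1 Mb bin. When bins were split into 4 classes of equal size by gene starts, the α-globin viewpoints at MFL 30 h had 0.729, 0.881, 1.03 and 1.36 times the trans mean from the gene-poorest to the gene-richest class. The β-globin viewpoints rose from 0.703 to 1.43 and Slc25a37 from 0.562 to 1.68. In mES the FISH viewpoints rose from 0.656 to 1.36 and R1 and R2 from 0.601 to 1.42. The gradient was present in each cell type, with α-globin active or silent.

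The share of trans value in the gene-richest class did not separate any pair of groups. From α-globin it was 34.1 ± 2.52% at 30 h and 34.8 ± 0.854% at 0 h (exact permutation p = 0.7, n = 3 a group), and 36.6 ± 0.911% in DKO against 38.0 ± 2.50% in WT (exact permutation p = 0.5). From the FISH viewpoints it was 33.8 ± 2.02% in MFL and 34.2 ± 1.47% in mES (exact permutation p = 0.9). All 7 tests had an adjusted p of 0.9.

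Viewpoints did differ from each other in this share within the same 12 libraries of MFL 0 h, MFL 30 h, WT and DKO, in bins off chromosomes 7, 11 and 14. Slc25a37 exceeded α-globin by 7.63 ± 1.63 points (SD, range 5.05 to 10.7), higher in 12 of 12 libraries (exact sign-flip permutation p = 0.0004883, the smallest 12 libraries can give, adjusted 0.0007324). It exceeded β-globin by 6.52 ± 2.17 points, also in 12 of 12. β-globin exceeded α-globin by 1.11 ± 1.37 points, in 9 of 12 libraries (exact sign-flip permutation p = 0.0127). This comparison was added after the data were seen.

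The position along the target chromosome also differed by viewpoint. Mouse chromosomes are telocentric, so their sequence starts near the centromere, and each target autosome was cut into 5 segments of equal length from that end. At MFL 30 h the α-globin viewpoints had 1.15 times the trans mean in the first segment and 0.921 in the last, whereas β-globin had 0.869 and 1.25 and Slc25a37 0.822 and 1.19. At MFL 0 h the corresponding values were 1.26 and 0.830 for α-globin, 0.853 and 1.20 for β-globin and 0.895 and 1.21 for Slc25a37. Gene density rises along these segments from 7.53 to 10.5 genes per Mb, so the decline from α-globin ran opposite to gene density.

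The log2 ratio of the first to the last segment was above 0 from α-globin and below 0 from β-globin and Slc25a37 in each of the 12 libraries. The α-globin value ranged from 0.21 in MFL 30 h replicate 1 to 0.75 in WT replicate 3, and the β-globin value from -0.81 to -0.42. Their difference was 1.15 ± 0.28 (mean ± SD, log2 scale, 12 of 12 libraries, exact sign-flip permutation p = 0.0004883, adjusted 0.0007324). The difference between α-globin and Slc25a37 was 1.01 ± 0.28 (12 of 12, the same p). Slc25a37 and β-globin differed by 0.13 ± 0.19, in 9 of 12 libraries. The comparison was added after the data were seen, and the viewpoints share libraries.

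The α-globin pattern recurred in other captures of the locus. R1 and R2 gave 1.33 in the first segment and 0.793 in the last in MFL and 1.25 and 0.921 in mES, and the FISH viewpoints gave 1.24 and 0.861 in MFL and 1.22 and 0.938 in mES. DKO had 1.34 and 0.823 from Hba-1, Hba-2 and HS39_5. The pattern was therefore seen in cells with silent α-globin and in cells without R1 and R2. The viewpoints lie at different places on their own chromosomes, α-globin at 32182969 (Hba-1) of 121843856 bp on chromosome 11, β-globin at 110961967 of 152524553 bp on chromosome 7 and Slc25a37 at 69902454 of 125194864 bp on chromosome 14. The part of this position in the pattern was not tested.

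**Figure D3:**
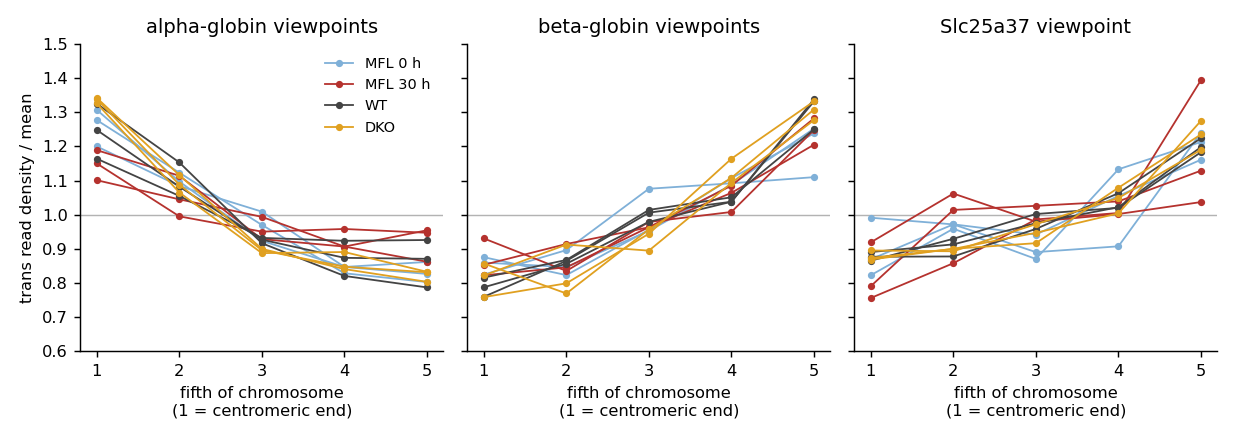
Trans value per Mb relative to the trans mean (y axis) in 5 segments of the target chromosomes from the centromeric end (x axis) for α-globin, β-globin and Slc25a37 viewpoints, with 1 line for each of the 12 libraries of MFL 0 h, MFL 30 h, WT and DKO. Lines fall from α-globin, at MFL 0 h from 1.26 to 0.830 on average, and rise from β-globin, from 0.853 to 1.20, and from Slc25a37, from 0.895 to 1.21.

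Single chromosomes and 5 Mb bins were compared with limma on log2(value + 10), with Benjamini-Hochberg adjustment within each fit. Between MFL 30 h and 0 h no chromosome or bin passed an adjusted p of 0.05 from α-globin, β-globin or Slc25a37 viewpoints (0.0% of 20 chromosomes and of 509, 506 and 509 bins). At an unadjusted p under 0.05 there were 1, 0 and 2 chromosomes and 31, 23 and 26 bins, and edgeR's quasi-likelihood test also called 0. DKO against WT gave 0 calls from α-globin (508 bins, 36 at an unadjusted p under 0.05) and 0 from β-globin (504 bins, 31), with 2 and 0 chromosomes at that level and 0 by edgeR. Without WT replicate 1 the DKO comparison from α-globin had 1 higher and 5 lower bins. R1 and R2 in MFL against mES gave 0 of 510 bins and 0 of 20 chromosomes (54 and 5 at an unadjusted p under 0.05), where edgeR called 2 bins, both higher. In simulated data the bin fits from Slc25a37, from R1 and R2 and from β-globin in DKO against WT recovered none of the changed bins and those from α-globin and β-globin otherwise recovered a part of them, so a count of 0 does not show that groups are alike.

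From the FISH viewpoints MFL differed from mES on 1 chromosome that was higher (5.0% of 20) and 2 that were lower (10.0%). Chromosome 19 had 3474, 3694 and 3767 of each 100000 trans reads in MFL and 3197, 2954 and 3094 in mES (log2 difference 0.24 ± 0.05 SE, limma adjusted p = 0.0354). Chromosome 8 had 5099, 5469 and 5072 against 6063, 5811 and 5912 (-0.19 ± 0.04 SE) and chromosome 10 had 5202, 5304 and 5278 against 5594, 5603 and 5582 (-0.09 ± 0.02 SE), both with an adjusted p of 0.0354. The groups did not overlap on any of these chromosomes, and the differences were small. The calls were kept in 6, 6 and 4 of 14 alternatives. None of these chromosomes was called by edgeR, which called chromosomes 5 and 18 instead, both lower in MFL.

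Among 509 bins, 2 were higher in MFL (0.393%) and 6 were lower (1.18%), and 70 had an unadjusted p under 0.05. The bin chr4:75000001-80000000, which has 2 gene starts and holds Ptprd, a receptor tyrosine phosphatase gene, had 148, 163 and 157 per 100000 trans reads in MFL and 69.3, 101 and 83.4 in mES (log2 difference 0.83 ± 0.19 SE, limma adjusted p = 0.0351). The bin chr14:110000001-115000000, with 4 gene starts, differed by 0.82 ± 0.20. The lower bins named by the rule were chr18:15000001-20000000 (-1.20 ± 0.22), chr6:50000001-55000000 (-0.86 ± 0.20) and chr1:1-5000000 (-0.85 ± 0.20). The chr18 bin had 244, 208 and 264 in MFL and 782, 527 and 420 in mES. It holds 1 hot fragment, chr18:17048384-17049346, which had 59.6 to 580 per 100000 trans reads over the 6 libraries. With hot fragments left out, the chr18 bin had 180, 150 and 144 in MFL and 206, 150 and 166 in mES, with overlap (-0.13 ± 0.19 SE), so the difference in this bin rests on that fragment. In that fit 0 bins passed, and the other named bins kept their direction with adjusted p of 0.0641 to 0.0682. The lower bins chr16:25000001-30000000 and chr2:155000001-160000000 tied with the chr6 and chr1 bins in adjusted p but were not named. Each holds 1 hot fragment, and without hot fragments they went from -0.93 to -0.14 (with overlap) and from -0.78 to -0.36. The named bins were kept in 5, 3, 7, 5 and 3 of 13 alternatives in the order given. Of the 5 named bins edgeR called only the chr18 bin, among 1 higher and 3 lower bins in all, which include the chr16 bin.

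The 5 Mb bins that α-globin met most were shared by the 12 libraries. The bin chr17:25000001-30000000, with 141 gene starts and Hba-ps4 inside it, had 3.88 ± 0.793 times the trans mean (SD over 12 libraries, range 2.56 to 5.19) and ranked in the top 25 in 12 of 12. It was followed by chr19:5000001-10000000 at 3.46, chr19:1-5000000 at 3.24, chr13:20000001-25000000 at 3.22, with 139 gene starts, and chr9:20000001-25000000 at 2.88, which holds Epor. R1 and R2 also met the chr17 bin most, at 3.81, followed by the chr13 bin at 3.15 and the chr19 bin at 3.07.

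β-globin and Slc25a37 were led by other bins, some of them on chromosome 11, which is not in trans for α-globin. Highest from both was the end of chromosome 11, chr11:120000001-121843856, at 2.90 ± 0.912 from β-globin and 3.8 ± 1.74 from Slc25a37, followed by the end of chromosome 15, chr15:100000001-103494974, at 2.33 and 3.26. The next were chr9:105000001-110000000 at 2.25 from β-globin and chr11:100000001-105000000 at 3.10 from Slc25a37. The chr17 bin ranked 5 from Slc25a37, at 2.77 ± 0.447, although that viewpoint gave no read on the chr17 fragment described above. The FISH viewpoints were led by chr7:95000001-100000000 at 5.91 ± 1.38, which holds the Eed fragment met by C.

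The globin and Slc25a37 loci were set against each other in windows of 400 kb, α at chr11:32000001-32400000, β at chr7:110800001-111200000 and Slc25a37 at chr14:69700001-70100000. Reads over a window were counted in the first run or technical replicate, whereas ratios of the deposited values are averaged over runs. In WT the β-globin viewpoints gave 19 reads over the α window where 3.4 were expected from their trans mean, a ratio of 5.58 (95% exact Poisson interval 3.36 to 8.71). By replicate there were 8, 2 and 9 reads. At MFL 0 h there were 27 reads against 8.10 (3.33, 2.20 to 4.85), of which 17 came from replicate 1, and at MFL 30 h 10 against 3.72 (2.69, 1.29 to 4.94). In DKO there were 3 reads against 2.63 (1.14, 0.235 to 3.33), 1 in each replicate, and this interval did not overlap that of WT. By replicate, the ratios of the deposited values were 4.33, 1.74 and 9.80 in WT and 3.14, 0.978 and 0.794 in DKO, and these overlapped.

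By reads of the first run, the contact seen from α-globin was lower than from β-globin in MFL 0 h, MFL 30 h and WT but not in DKO. At MFL 0 h the α-globin viewpoints gave 2 reads over the β window where 16.4 were expected (0.122, 0.0148 to 0.441). Averaged over both runs, the 0 h replicates stood at 2.25, 0 and 0.544 times the trans mean, so the low count holds for the first run only. At 30 h there were 11 reads against 7.58 (1.45, 0.724 to 2.60), 9 of them in replicate 3. In WT there were 37 reads against 19.3 (1.92, 1.35 to 2.64) and in DKO 18 against 15.5 (1.16, 0.689 to 1.84). By these intervals, both directions gave different values for the same pair of loci at MFL 0 h and in WT. At MFL 30 h and in DKO the intervals overlapped.

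The Slc25a37 window was above the trans mean from α-globin in each of these groups. The α-globin viewpoints gave 27 reads at MFL 0 h (1.65 times expected, 1.09 to 2.40), 15 at 30 h (1.98, 1.11 to 3.26), 47 in WT (2.43, 1.79 to 3.24) and 40 in DKO (2.58, 1.84 to 3.52). The β-globin viewpoints gave 36 reads at MFL 0 h (4.45, 3.11 to 6.15), 27 of them from replicate 1, and 12 at 30 h (3.22, 1.67 to 5.63), 11 of them from replicate 3. In the reverse direction Slc25a37 gave 5 reads over the α window at MFL 0 h (1.21 times expected) and 0 of 9452 trans reads at 30 h, where 1.55 were expected and up to 2.38 times the trans mean is allowed. Over the β window it gave 21 reads at 0 h (5.08, 3.14 to 7.77) and 3 at 30 h (1.93, 0.399 to 5.65). Averaged over both runs, the 30 h replicates stood at 5.14, 5.24 and 0 times the trans mean there.

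Between cell types, the 5 FISH viewpoints gave 47 reads over the Slc25a37 window in the first technical replicate of MFL (3.13 times expected, 2.30 to 4.16). They gave 41 in mES (0.722, 0.518 to 0.979), so these intervals did not overlap. Over the β window they gave 19 in MFL (1.26, 0.761 to 1.97) and 29 in mES (0.510, 0.342 to 0.733), 21 of the latter from replicate 3. Averaged over all 5 FISH viewpoints and both technical replicates, the Slc25a37 window stood at 1.69, 2.67 and 1.77 times the trans mean in the MFL replicates and at 0.746, 0.620 and 0.834 in mES, without overlap. In the same way the β window stood at 1.02, 1.55 and 1.64 in MFL and at 0.0595, 0.281 and 1.18 in mES, with overlap. R1 and R2 gave too few reads to compare, 5 in MFL and 6 in mES over Slc25a37, and 4 and 1 over β. Reads over a window are not independent molecules and replicates differed, so the intervals are too narrow for a comparison of groups.

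**Figure D4:**
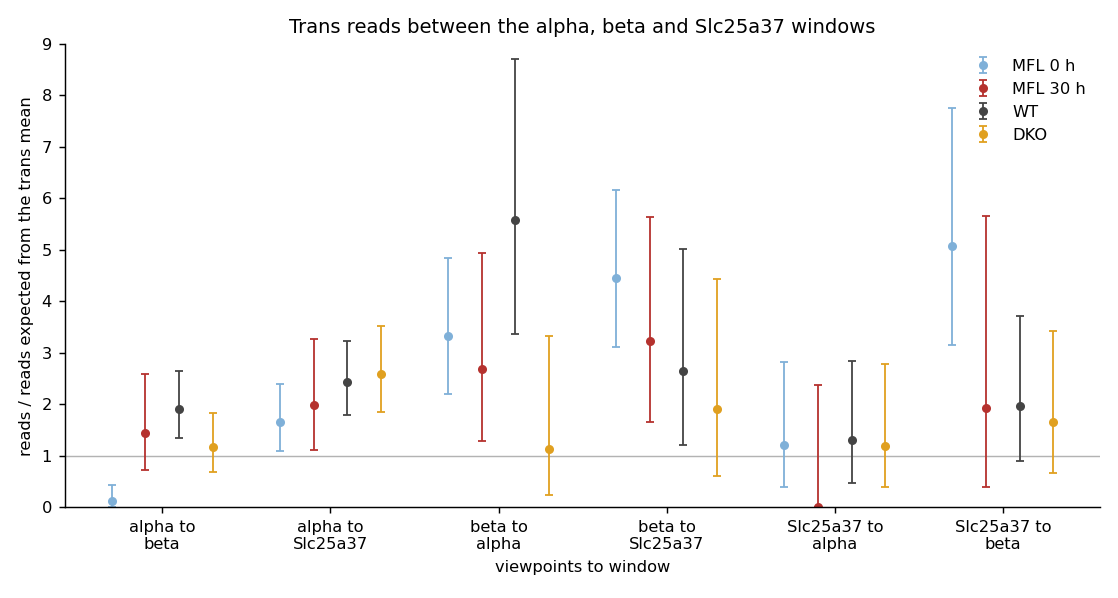
Reads of the first run over the windows of the other loci divided by the reads expected from the trans mean of the same viewpoints (y axis) for each viewpoint set and window (x axis) in MFL 0 h, MFL 30 h, WT and DKO, with 95% exact Poisson intervals that cover counting error only. From β-globin to the α window the ratio was 5.58 in WT and 1.14 in DKO, and from α-globin to the Slc25a37 window it lay between 1.65 and 2.58 in the 4 groups.

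Windows of 200 kb on each side of the starts of erythroid genes held more trans value than those of all genes. At MFL 30 h from α-globin, 33 of 38 erythroid windows were above the trans mean, beside 56.7% of 19633 windows of all protein-coding genes, with medians of 2.64 and 1.15 times that mean. At MFL 0 h there were 30 of 38 (all genes 56.1%), in WT 34 of 38 (59.1%) and in DKO 36 of 38 (60.9%), with erythroid medians of 1.97, 2.10 and 2.00. From β-globin at 30 h there were 30 of 39 (53.6%) and from Slc25a37 28 of 38 (49.4%), with medians of 2.25 and 2.77. At MFL 0 h the counts were 29 of 39 from β-globin (all genes 55.0%) and 32 of 38 from Slc25a37 (54.1%), in WT 37 of 39 (62.0%) and 37 of 38 (62.7%), and in DKO 36 of 39 (58.2%) and 35 of 38 (63.8%). Erythroid windows thus exceeded the share of all genes in each of these groups and from each set when windows were averaged over replicates. At MFL 30 h single replicates had 24, 28 and 31 of 38 windows above the mean from α-globin. From β-globin they had 21, 25 and 28 of 39, and from Slc25a37 18, 20 and 23 of 38. The Slc25a37 medians were 0, 1.02 and 2.84, with a median of 0 for all genes in each replicate. Erythroid windows held a median of 10 gene starts and windows of all genes 8, and the part of this in the result was not tested. Windows of neighbouring genes overlap and the list was not tested.

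Members of the list had various roles. Among receptors, Epor, the erythropoietin receptor, stood at 3.90 to 8.17 times the trans mean from α-globin across the MFL 0 h, 30 h, WT and DKO means, and Tfrc, the transferrin receptor that takes up iron, at 1.72 to 6.90. The transcription factor gene Klf1 stood at 2.19 to 4.53, and Ank1, which encodes the membrane skeleton protein ankyrin, at 4.13 to 5.93. Others were near or under the mean, among them Spna1, the α-spectrin gene, at 0.789 to 1.61 and Bcl2l1, a survival gene, at 0.220 to 1.77. The spread among replicates was wide, as for Tfrc at MFL 30 h, whose replicates ran from 0.585 to 6.27.

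Between MFL and mES, erythroid and pluripotency windows differed in opposite directions from the FISH viewpoints. From the FISH viewpoints 32 of 38 erythroid windows were above the trans mean in MFL (all genes 59.3%) and 25 of 38 in mES (63.1%), and 8 of 16 pluripotency windows in MFL and 12 of 16 in mES. The erythroid medians were 1.67, 1.72 and 2.04 in the MFL replicates and 1.09, 1.31 and 1.25 in mES. The pluripotency medians were 1.05, 1.00 and 0.826 in MFL and 1.24, 1.39 and 1.40 in mES. For both lists these medians did not overlap between the cell types. The pluripotency counts by replicate met at 9 of 16, with 9, 8 and 7 in MFL and 9, 11 and 12 in mES. From the viewpoint sets without an mES counterpart, pluripotency windows were not always low in MFL. Those above the mean ran from 37.5% from α-globin at MFL 30 h (all genes 56.7%) to 71.4% from β-globin in WT (62.0%). From α-globin in DKO they were 68.8% (60.9%).

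R1 and R2 gave the same order for pluripotency windows. They were above the mean for 6 of 16 in MFL (all genes 55.3%) and 14 of 16 in mES (63.3%), with medians of 0.722, 0 and 0.552 in the MFL replicates and 1.80, 1.64 and 2.06 in mES. The erythroid medians were 1.44, 1.87 and 1.78 in MFL and 1.25, 1.57 and 1.01 in mES, which overlapped. The list medians at this depth rest on few reads per window, and MFL held fewer trans reads than mES.

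Single genes showed the size of these differences from the FISH viewpoints. Kel, a blood group antigen gene, stood at 1.68 to 3.45 times the trans mean in the MFL replicates and 0.526 to 0.917 in mES. Tfrc stood at 4.01 to 4.82 in MFL and 1.53 to 3.16 in mES. Of the pluripotency factors, Sox2 stood at 0.262 to 0.855 in MFL and 1.62 to 1.78 in mES. Pou5f1, which encodes Oct4, stood at 1.99 to 3.69 in MFL and 2.87 to 7.43 in mES, with overlap, and Nanog at 0.448 to 1.30 and 0.474 to 1.84. Ank1 and Epor, high in MFL, overlapped with mES.

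**Figure D5:**
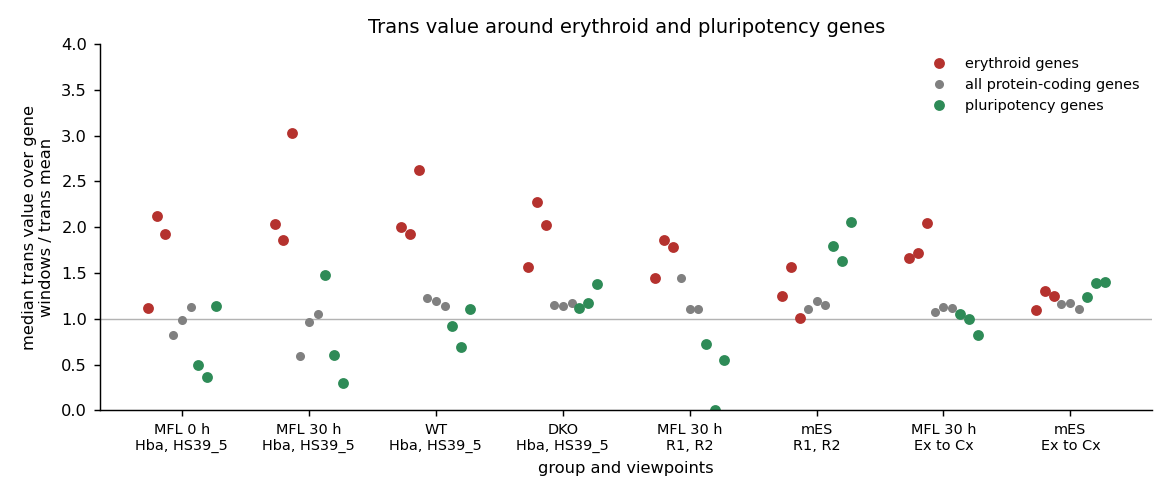
Median trans value of gene windows relative to the trans mean (y axis) for erythroid genes, all protein-coding genes and pluripotency genes in 8 combinations of group and viewpoint set (x axis), with 1 point per replicate. From the FISH viewpoints erythroid medians are 1.67 to 2.04 in MFL and 1.09 to 1.31 in mES, and pluripotency medians 0.826 to 1.05 and 1.24 to 1.40.

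In the single libraries no replicate check was possible and no p is given. From R1 and R2 the trans share was 35.0 and 39.3% in AMKO and 31.7 and 37.1% in its WT. Chromosome 19 stood at 2.21 times the trans mean in AMKO and 1.97 in WT, both above the 1.64 ± 0.0835 (SD, n = 3) of the replicated MFL libraries from the same viewpoints. The r of chromosome share and length was 0.413 in AMKO and 0.661 in its WT. From Hba-1 the trans share was 38.1% in untreated cells, 37.2% with DMSO and 35.6% with DRB, and over the viewpoints the shares ranged from 38.1 to 40.5%, 36.7 to 39.7% and 34.6 to 37.7%. Over the β window, α-globin gave 11 reads with DRB where 1.31 were expected (8.37, 4.18 to 15.0), 2 in untreated cells and 0 with DMSO, while in the other direction β-globin gave 4, 6 and 0 over the α window.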

How the data were processed

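Published NG Capture-C data of 39 libraries in 13 groups were used. According to the study's methods, 3C libraries were cut with DpnII and captured in a double oligonucleotide capture. The submitters' processing notes name Trim Galore, Bowtie and the build mm9, and versions are not given in the sources used here. The authors deposited a value for each viewpoint and DpnII fragment, scaled so that the reporter reads of a viewpoint sum to 100000, in the manner of RPM. Whole reads were recovered from the size of 1 read. In 3 columns this size was close to a power of 10, so whole reads are less sure there, and such columns enter some read counts over windows. The authors' combined columns of both Hba or both Hbb viewpoints were not used, and 0 columns belonged to another series.

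Fragments within 1 kb of any viewpoint of a panel, chromosome M and the viewpoint's own chromosome were left out. Each viewpoint was scaled to 100000 trans reads, and values were averaged over sequencing runs (NextSeq and MiSeq) or technical replicates, and then over the viewpoints of a set. In their counts over bins, runs of 1 replicate differed by less than sampling noise (chi-square per degree of freedom 0.313 to 0.786). They were counted as 1 sample, whereas technical replicates of the FISH capture gave 1.63 to 2.61. This check does not cover the trans share or single fragments, which did differ between runs. At MFL 0 h the NextSeq run had the higher trans share from every viewpoint in every replicate. From HS39_5 in replicate 3 it was 36.7% (counting interval 36.3 to 37.2) in the NextSeq run and 28.1% (27.2 to 29.1) in the MiSeq run. Genes came from GENCODE for NCBIM37, where 43 of 49 erythroid and 17 of 18 pluripotency symbols were annotated. Printed sequences were read from the NCBIM37 genome.

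For trans shares and gene-dense shares, exact permutation tests (two-sided) were run. Differences between viewpoints of the same libraries were compared by exact sign-flip permutation tests. Chromosomes and 5 Mb bins with a mean of at least 20 per 100000 trans reads were compared with limma 3.58.1 on log2(value + 10), which understates changes of low values, with Benjamini-Hochberg adjustment and a threshold of 0.05, and edgeR 4.0.16 on recovered reads was an alternative. That fit used E, C and Cx of the FISH viewpoints. R 4.3.3, Python 3.11.15, numpy 2.4.6, pandas 2.3.3, scipy 1.17.1 and blastn 2.17.0+ (e-value 0.001) were used. The fitting step was tested on simulated data, in which it missed many or all changed bins of the shallower fits. Named bins were, for each fit and direction, the 3 with the smallest adjusted p whose replicates did not overlap, and for each viewpoint set the 5 bins and 5 fragments with the highest mean. Named genes came from the erythroid and pluripotency lists, the 3 locus windows and the α-globin pseudogenes. The members, lists and tests were chosen with earlier results of these data known. Replicate numbers were not taken to pair the samples.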

Additional observations from a re-analysis of the deposited data

Results flagged for a closer look

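In the FISH capture, the trans share of E relative to the mean of Ex, A, C and Cx was above 0 in every MFL library and below 0 in every mES library, a difference of 13.3 percentage points. In the enhancer capture, the trans share of R2 relative to R1 had opposite signs in the cell types in the same way, a difference of 4.77 points. Both differences were tested by exact permutation of 3 against 3 libraries, which gave p = 0.1, the smallest possible, so neither could pass 0.05.

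Fragments of the single AMKO library that the comparisons do not use also stood out. The fragment chrX:103399004-103399260, in an exon of Pgk1, which encodes a glycolytic kinase, held 113 of 49645 trans reads from R1 and R2 in AMKO, or 228 per 100000, and 10 of 30920 (32.3 per 100000) in the WT library of that experiment. The fragment chrX:103399289-103399373, 251 bp from Pgk1, held 85 reads in AMKO, or 171 per 100000, and 1 read in WT. In the replicated MFL and mES libraries from the same viewpoints both fragments held 0 reads, which allows up to 15.9 and 8.59 per 100000. The neighbouring fragment chrX:103399374-103399548 ranked 4 among trans fragments in AMKO. AMKO carries a deletion on chromosome 11, and whether these reads come from chromosome X in its cells was not tested. Groups had 1 to 3 replicates, so no library was tested as an outlier.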

How the results depend on the processing

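Among 597 alternative values, 261 alternatives other than left-out libraries and 281 with a library left out counted as the same. For a difference this meant the same sign, and for a window a ratio within the SD of the replicates. For a number of calls it meant an equal count or one within 1.5-fold. Of the others, 17 and 19 in the same order had moved, 3 and 12 were reversed and 4 were weaker. Depth limits single bins most, since a 5 Mb bin of the shallower groups rests on few reads, and hot fragments and windows depend on single libraries.

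The trans share of Slc25a37 between 30 h and 0 h changed sign with the first run alone (-0.435 points) and ranged from -1.65 to 2.99 with a library left out. Left-out libraries gave -4.39 to 1.30 for Hba-1 and -5.50 to 0.544 for Hba-2 in DKO against WT, positive in both only without WT replicate 1. They gave 1.21 to 9.32 for HS39_5, 0.886 to 8.16 for Hbb-b1 and 3.46 to 9.99 for Hbb-b2, the highest without WT replicate 1, when the groups did not overlap. The gene-dense share from Slc25a37 was -0.546 with the second run alone and -2.26 to 2.43 with a library left out, and from R1 and R2 it was -0.746 with a gene-rich class of double size and -0.117 to 1.76. The other ranges that crossed 0 were -2.12 to 0.256 (α-globin, 30 h against 0 h), -1.57 to 0.332 (FISH) and -2.44 to 0.238 (β-globin, DKO against WT). With 3 against 3 replicates these values could not pass 0.05, and the cause was not tested.

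In windows of 1 Mb the ratio was 1.55 from α-globin to Slc25a37, 0.477 from Slc25a37 to α, 1.58 and 2.22 from R1 and R2 to β and Slc25a37 and 0.859 and 1.49 from the FISH viewpoints to β and Slc25a37 in MFL 30 h. The position difference of α- and β-globin was 1.09, 0.84, 1.26 and 1.39 in MFL 0 h, MFL 30 h, WT and DKO alone, each with 3 libraries and hence an exact sign-flip permutation p of 0.25 at best.

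The FISH calls changed most. With the first technical replicate alone there were 0 chromosomes and 0 bins, with hot fragments left out 0 bins (an alternative chosen after seeing the data), without a filter 13 bins and by edgeR 4 bins, and left-out libraries gave 0 to 1 chromosomes and 0 to 21 bins, the latter without MFL replicate 3. Other counts were 1 chromosome from Slc25a37 with the second run alone and 0 to 1 with a library left out, 2 bins by edgeR and 0 to 1 for R1 and R2, and, for DKO against WT, 0 to 1 chromosomes and 0 to 6 bins from α-globin and 0 to 2 bins from β-globin, the highest without WT replicate 1. Correlations were -0.126 to 0.196 between same-numbered samples and -0.266 to 0.157 between samples of other numbers. These ranges overlap and the values are low, so they cannot decide whether the numbers pair the samples. In the trans share, replicate 3 was the lowest library at both 0 h and 30 h from every viewpoint. Pairing is therefore not settled. With the replicate number as a block, the FISH fit called 0 chromosomes and 0 bins, and DKO against WT called 1 bin from α-globin and 3 from β-globin.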
